A study of Homo sapiens and Mus musculus with 12 samples.

Results

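A list of 10 heat shock protein genes was followed through the 12 libraries of a polysome profiling study of melanoma cells. The genes were matched by symbol in capital letters, and all 10 have values in both tables (16782 genes for A375 and 12711 for Yumm1.7). HSP90AA1, HSP90AB1, HSPA8, HSPA1A, HSPA1B, HSPA4 and HSPH1 encode 7 chaperones of the cytosol, and HSPA9, HSPD1 and HSPE1 encode 3 chaperones of the mitochondrial matrix. A375 is a human melanoma line and Yumm1.7 a mouse melanoma line, both carrying mutant BRAF, and each was profiled in a state labelled S and a state labelled P. One of these states is the parental cells and the other is drug-tolerant persister cells, which survive a drug without stable resistance. The letters are not explained in the labels, and the sources used here give neither the drug and its dose nor the number of cultures, so the states are called S and P throughout. Each state of each line gave 1 polysome library from the bottom of a sucrose gradient, 1 monosome library from the single-ribosome peak with the lighter fractions before it, and 1 input library from RNA before the gradient. Every group is a single library, so replicate error is unknown and all differences are descriptions of these libraries, without a test.

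HSP70 proteins bind short hydrophobic stretches of unfolded polypeptides in a cycle driven by ATP, with J-domain proteins delivering the client and nucleotide exchange factors releasing it. HSP90 proteins act later, on nearly folded clients such as protein kinases and steroid receptors, and mutant BRAF is a known HSP90 client. In the mitochondrial matrix HSPA9, the local HSP70, pulls imported proteins through the membrane, and HSPD1 rings capped by HSPE1 fold them in an enclosed chamber. The transcription factor HSF1 raises many of these genes upon protein damage by binding heat shock elements, which are alternating GAA and TTC blocks spaced by any 2 bases.

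HSPD1 (chr2:197486584-197500274, minus strand) and HSPE1 (chr2:197500379-197503449, plus strand) start 105 bases apart on opposite strands of GRCh38. HSPA1A (chr6:31815543-31817942) and HSPA1B (chr6:31827738-31830254) lie on the plus strand with 9795 bases between them. HSP90AB1 is on chromosome 6 as well, HSP90AA1 on chromosome 14, HSPA8 on chromosome 11, HSPH1 on chromosome 13, and HSPA4 and HSPA9 on chromosome 5. The 10 human genes have 14 RefSeq promoter windows (GRCh38.p14), each running from 250 bases before a start to 50 after it. The element GAANNTTC, which reads the same on both strands, was found in 6 of the 14 windows, against 6.77% of 35116 windows of all genes. A longer element of 3 blocks, the same letters followed by any 2 bases and GAA, was searched on both strands. It contains the shorter element and was in 4 of the 14 windows, against 0.49% of all. Each of these windows belongs to a different gene. The matching stretches are shown because induction of this family by HSF1 runs through this element, and HSPA8 has a further match that is not shown. They are written 5′ to 3′ along the gene, with the heat shock element in capitals. The HSPA1A and HSPA1B stretches are longer so that the copies can be set side by side.
HSPA1A: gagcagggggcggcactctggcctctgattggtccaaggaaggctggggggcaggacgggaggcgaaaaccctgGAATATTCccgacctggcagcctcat
HSPA1B: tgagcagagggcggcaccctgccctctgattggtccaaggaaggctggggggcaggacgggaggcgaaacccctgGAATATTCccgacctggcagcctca
HSP90AA1: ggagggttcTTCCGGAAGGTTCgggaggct
HSP90AB1, first element: ggagcaggTTCTGGAAGATTCatgggctcc
HSP90AB1, second element: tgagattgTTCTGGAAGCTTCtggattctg
HSPA8: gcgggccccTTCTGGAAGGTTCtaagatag
HSPD1: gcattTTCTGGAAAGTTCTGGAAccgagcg

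The HSPA1A stretch is chr6:31815363-31815462 and the HSPA1B stretch chr6:31827558-31827657, both on the plus strand and outside annotated exons. The HSP90AA1 stretch is chr14:102087112-102087141 and the HSPA8 stretch chr11:123062171-123062200, both on the minus strand. The HSP90AB1 stretches are chr6:44247770-44247799 and chr6:44247823-44247852 on the plus strand, before the third of its RefSeq starts. The HSPD1 stretch is chr2:197500061-197500090 on the minus strand, before the second of its starts. The HSP90AA1, HSPA8 and HSPD1 stretches overlap exons in the GENCODE 29 annotation. No match was found in the windows of HSPA4, HSPH1, HSPA9 and HSPE1, which says only that these letters are not in those windows. A match is a description and not a measured binding site.

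The deposited unit is TPM, read density per transcript length scaled to a library total of 1000000, so levels of different genes can be compared within a library. All genes with deposited values together sum to 66.6% to 90.1% of that total in A375 and 84.5% to 94.4% in Yumm1.7. The depth is unknown, and TPM says nothing of how much RNA or how many ribosomes a fraction held. In bulk libraries fewer cells with a transcript and less of it per cell cannot be told apart. Differences are of log2(TPM + 1), which understates those of low genes. They are given relative to the median gene, taken over genes averaging 1 TPM or more in a line (12638 in A375 and 10492 in Yumm1.7), because the median gene itself moved. For S minus P it stood at -0.21 in polysomes, 0.04 in monosomes and -0.20 in input in A375, and at -1.53, -0.21 and -0.94 in Yumm1.7. Members past 2-fold on this relative scale (1 on the log2 axis) are counted. Of 12 melanoma markers, 9 had values in A375, summing to 809 to 1889 TPM in S and 428 to 837 in P. In Yumm1.7 only 5 had values, summing to 9.77 to 65.2 TPM in S and 12.9 to 19.0 in P, with Pmel, Mlana and S100b at 0 in some libraries. Fibroblast markers (4 of 5 with values in Yumm1.7) summed to 48.6 to 83.5 TPM in S and 3.58 to 6.49 in P, and their part in the Yumm1.7 results was not tested. In A375 the fibroblast sums were 2.06 to 4.18 TPM in S and 1.60 to 7.15 in P. Transcripts of the mitochondrial genome took 9.15% of 1000000 TPM in S polysomes and 2.23% in P polysomes of A375, and 19.4% in S and 1.90% in P polysomes of Yumm1.7. Their share of input was 16.8% in S and 13.3% in P of A375, and 19.1% in S and 9.86% in P of Yumm1.7. The Yumm1.7 S input library listed 1581 genes at 0 and the P input library 316. The part of these library differences in the results was not tested.

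The 10 genes differed in level by several orders of magnitude. Summed, they made 8185 TPM in S polysomes and 13266 in P polysomes of A375, 1658 in S monosomes and 1391 in P monosomes, and 2491 in S input and 8595 in P input. In Yumm1.7 the sums were 5199 TPM in S polysomes and 8103 in P polysomes, 3282 and 3229 in S and P monosomes, and 2892 and 5879 in S and P input. HSPA8, HSP90AB1, HSP90AA1 and HSPE1 ranked 336 or higher among all genes in every library of both lines. HSPA1A and HSPA1B, the stress-inducible HSP70 genes, were at the other end: HSPA8 had 58.0 times their summed TPM in A375 S input and 77.6 times in P input. In Yumm1.7 Hspa1b did not exceed 3.16 TPM and Hspa1a did not exceed 0.546 TPM in any library. Hspa1a was therefore below the level needed for the comparisons, which cover 10 genes in A375 and 9 in Yumm1.7.

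**Figure D1:**
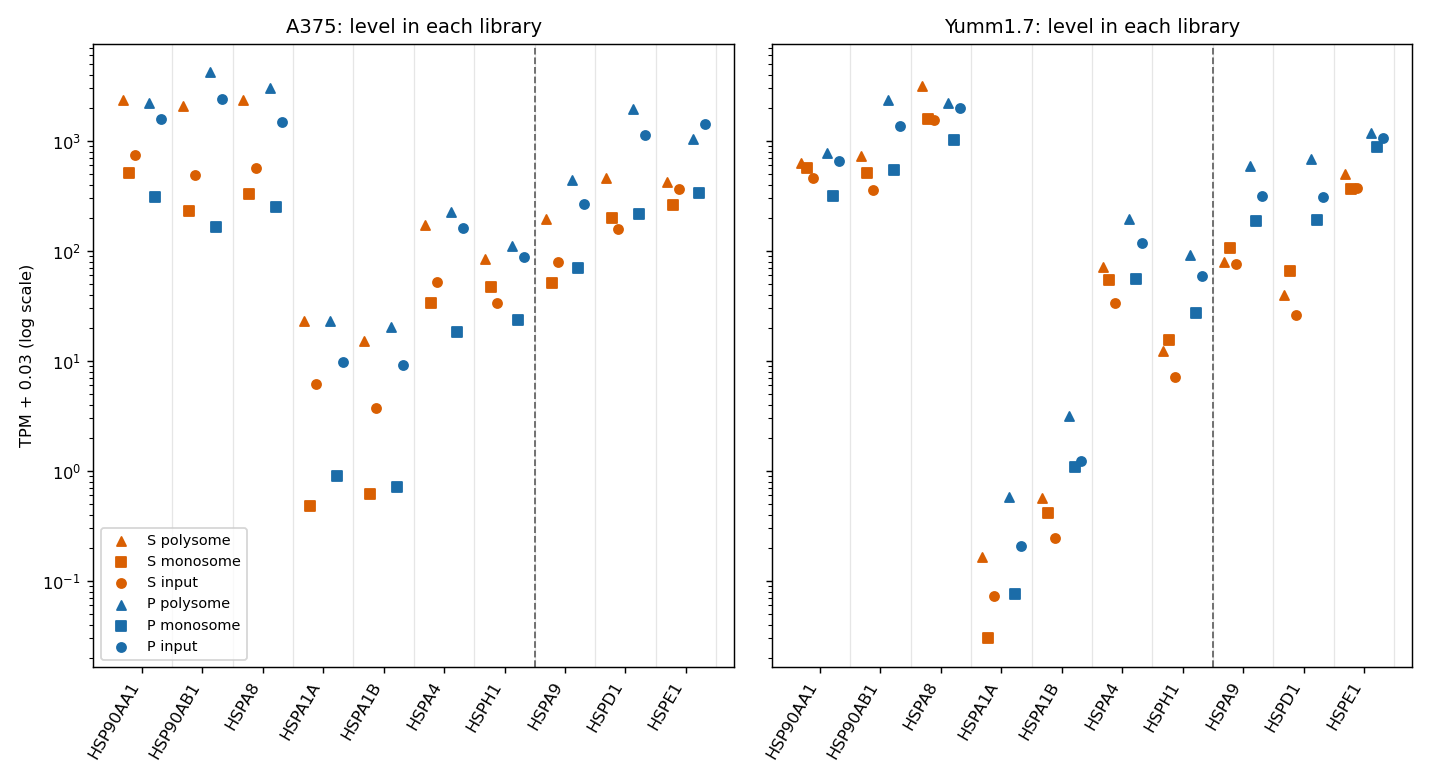
Level of each gene in TPM (log axis, with 0.03 TPM added so that a value of 0 can be drawn) in the 6 libraries of each line, 1 symbol per library, with S in orange and P in blue. Triangles are polysomes, squares monosomes and circles input, and the dashed line parts cytosolic from mitochondrial genes. HSPA1A and HSPA1B lie below 23 TPM in all libraries.

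In input RNA, S was compared with P to show how the cellular pool of these mRNAs differed between the states. In A375 all 10 genes were lower in S relative to the median gene, and 7 were at least 2-fold lower, against 16.2% of all genes. None was at least 2-fold higher, against 15.6%. The median of the 10 was -1.29 where all genes have 0. In Yumm1.7, 3 of 9 were at least 2-fold lower, against 22.3% of all genes, a share near the background, and none was higher, against 23.1%. As deposited 6 of 9 were lower, against 48.1%. HSPD1, HSPA9 and HSPH1 were at least 2-fold lower in both lines, although HSPA9 in Yumm1.7 fell short of it with 0.1 TPM added (-0.94). The share of all genes lower in both lines was not computed, so this overlap is no result about the members. In A375 the 6 genes with a heat shock element in their windows spanned -2.64 (HSPD1) to -0.40 (HSPA1A). The 4 without one spanned -1.78 (HSPE1) to -1.17 (HSPH1), so the ranges overlap. The HSPD1 stretch lies upstream of HSPE1, outside its window (chr2:197500129-197500428), so the place of HSPE1 in this split depends on the window length.

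HSP90AB1, the constitutive cytosolic HSP90, had 487 TPM in S input and 2427 in P input of A375, a relative log2 difference of -2.12. In Yumm1.7 Hsp90ab1 had 360 TPM in S input and 1353 in P input, which is -0.97 and just short of 2-fold. Its mRNA was closer between the states on the gradient. In A375 it had 2072 TPM in S polysomes and 4203 in P polysomes, a log2 difference of -0.81, and 228 in S monosomes and 165 in P monosomes (0.43). In Yumm1.7 it had 729 TPM in S polysomes and 2369 in P polysomes, a log2 difference of -0.17 on the relative scale but -1.698 as deposited, and 513 and 542 in the monosome libraries of S and P (0.13).

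HSP90AA1, the stress-inducible HSP90 partner of HSP90AB1, differed less in input and stood higher in S on the gradient. In A375 it had 738 TPM in S input and 1597 in P input (-0.91), 2366 in S polysomes and 2214 in P polysomes (0.30), and 508 in S monosomes and 306 in P monosomes (0.69). The S value was thus the lower one in input and the higher one in both gradient fractions. In Yumm1.7 Hsp90aa1 had 463 TPM in S input and 657 in P input (0.43, but -0.51 as deposited), and 635 in S polysomes and 776 in P polysomes. The polysome difference was 1.24 relative to the median gene and -0.29 as deposited, so its direction rests on the scaling. In monosomes it had 565 TPM in S and 313 in P, higher on both scales (1.06 relative to the median gene and 0.85 as deposited).

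HSPA8, the constitutive HSP70 of the cytosol, had 572 TPM in S input and 1470 in P input of A375 (-1.16). In A375 polysomes it had 2372 TPM in S and 3051 in P (-0.15), and in monosomes 332 and 253 (0.35). The lower level in A375 S was thus seen in input and not past 2-fold in either gradient fraction. In Yumm1.7 Hspa8 had 3131 TPM in S polysomes and 2208 in P polysomes, the largest relative difference upward of any member in any fraction (2.04, and 0.50 as deposited). It had 1591 TPM in S monosomes and 1029 in P monosomes (0.84), and 1552 in S input and 2000 in P input, which is 0.57 on the relative scale and -0.37 as deposited.

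HSPA1A and HSPA1B encode near-identical inducible HSP70 proteins, and their annotated transcripts are 96% identical over 2396 aligned bases with 1715 identical bases in a row, so the split of reads between them is uncertain. The upstream stretches shown above differ at 4 of 99 aligned bases and carry the same element. In A375 HSPA1A had 22.8 TPM in S polysomes and 22.9 in P polysomes, 0.453 and 0.877 in monosomes, and 6.13 and 9.77 in input. HSPA1B had 15.0 TPM in S polysomes and 20.1 in P polysomes, 0.582 and 0.686 in monosomes, and 3.72 and 9.16 in input. Neither was past 2-fold between S and P in any fraction on the relative scale, but HSPA1B in input (-0.91) was past it as deposited (-1.11) and with 0.1 TPM added (-1.06). In Yumm1.7 Hspa1b had 0.541 TPM in S polysomes and 3.16 in P polysomes, 0.382 and 1.05 in monosomes, and 0.218 and 1.20 in input. At levels this low the added 1 TPM dominates the difference. Hspa1b is among the 9 genes of the Yumm1.7 counts and medians, where it was past 2-fold in no comparison on the relative scale. With 0.1 TPM added it was past 2-fold between S and P in monosomes (-1.02). In S it then was so in polysomes against monosomes (1.01) and against input (1.10).

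HSPA4 and HSPH1 belong to the HSP110 branch, which act as nucleotide exchange factors for HSP70 and help it dissolve aggregates. HSPA4 had 51.6 TPM in S input and 161 in P input of A375 (-1.42), and 33.4 in S input and 117 in P input of Yumm1.7 (-0.85). In polysomes it had 174 TPM in S and 226 in P of A375 (-0.17) and 71.3 in S and 194 in P of Yumm1.7 (0.10, and -1.43 as deposited). In monosomes it had 33.4 TPM in S and 18.3 in P of A375 (0.79), and 54.6 in S and 55.9 in P of Yumm1.7 (0.17, and -0.03 as deposited). HSPH1, the heat-inducible member, separated the lines on the gradient. In A375 it had 33.6 TPM in S input and 88.1 in P input (-1.17), 84.7 in S polysomes and 111 in P polysomes (-0.17), and 47.3 in S monosomes and 23.4 in P monosomes (0.94). In Yumm1.7 Hsph1 had 7.05 TPM in S input and 58.8 in P input (-1.96), 12.2 in S polysomes and 91.1 in P polysomes (-1.27), and 15.6 in S monosomes and 27.3 in P monosomes (-0.56). The S value was the lower one in all 3 fractions of Yumm1.7.

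HSPD1, the mitochondrial chaperonin, had the most negative S minus P difference of the members compared, in input and polysomes of both lines. In A375 it had 157 TPM in S input and 1131 in P input (-2.64), 462 in S polysomes and 1945 in P polysomes (-1.86), and 198 in S monosomes and 215 in P monosomes (-0.16). In Yumm1.7 Hspd1 had 25.9 TPM in S input and 311 in P input (-2.60), 40.1 in S polysomes and 692 in P polysomes (-2.54), and 66.1 in S monosomes and 190 in P monosomes (-1.30). Relative to the median gene HSPD1 was the only member at least 2-fold lower in S in all 3 fractions of a line, in Yumm1.7. In A375 the monosome libraries were the exception. As deposited Hspe1 was past 2-fold in all 3 fractions of Yumm1.7 too (-1.51 in input, -1.24 in polysomes and -1.26 in monosomes). The share of all genes lower in all 3 fractions was not computed. In input the HSPD1 difference lay at percentile 2.5 of all genes in A375 and 3.8 in Yumm1.7.

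HSPE1, the co-chaperonin that closes the HSPD1 ring, had 363 TPM in S input and 1434 in P input of A375 (-1.78), and 420 in S polysomes and 1031 in P polysomes (-1.09). In A375 monosomes it had 259 TPM in S and 339 in P (-0.42). In Yumm1.7 Hspe1 had 374.5 TPM in S input and 1066 in P input (-0.57, and -1.51 as deposited), 499 in S polysomes and 1179 in P polysomes (0.29, and -1.24 as deposited), and 369 in S monosomes and 884 in P monosomes (-1.05). HSPA9, the mitochondrial HSP70, had 78.6 TPM in S input and 269 in P input of A375 (-1.57), and 196 in S polysomes and 442 in P polysomes (-0.96). In monosomes it had 51.0 TPM in S and 70.3 in P of A375 (-0.50), and 107 in S and 188 in P of Yumm1.7 (-0.60). In Yumm1.7 Hspa9 had 75.4 TPM in S input and 313 in P input (-1.10), and 79.7 in S polysomes and 592 in P polysomes (-1.34). For HSPE1 and HSPA9 the S value was the lower one in TPM in all 3 fractions of both lines. The same held for HSPD1 and for the cytosolic HSPA1A and HSPA1B. HSPD1, HSPE1 and HSPA8 have many pseudogenes (22, 28 and 20 named for them in RefSeq), so reads of these genes could be shared among copies by the authors' quantification.

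Between fractions the S minus P counts differed. In A375 polysomes 2 of 10 members (HSPD1 and HSPE1) were at least 2-fold lower in S, against 15.6% of all genes, and none was higher, against 16.5%. In A375 monosomes none was past 2-fold in either direction, where 13.2% of all genes were lower and 11.7% higher. The 7 cytosolic members had medians of -0.17 in polysomes, 0.43 in monosomes and -1.16 in input, and the 3 mitochondrial members -1.09, -0.42 and -1.78. In Yumm1.7 polysomes 3 of 9 were lower (HSPH1, HSPA9 and HSPD1), against 22.5%, and 2 higher (HSP90AA1 and HSPA8), against 24.1%. In Yumm1.7 monosomes 2 were lower (HSPD1 and HSPE1), against 24.0%, and 1 higher (HSP90AA1), against 25.4%. The Yumm1.7 medians were 0.10 in polysomes, 0.15 in monosomes and -0.38 in input for the 6 cytosolic members that entered, and -1.34, -1.05 and -1.10 for the 3 mitochondrial ones. All 3 mitochondrial members lay below the median gene in S in every fraction of both lines except Hspe1 in Yumm1.7 polysomes. As deposited, 4 of 10 were at least 2-fold lower in A375 polysomes (20.6% of all genes) and 7 of 9 in Yumm1.7 polysomes (65.1%), with none higher, against 12.5% and 5.28%.

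**Figure D2:**
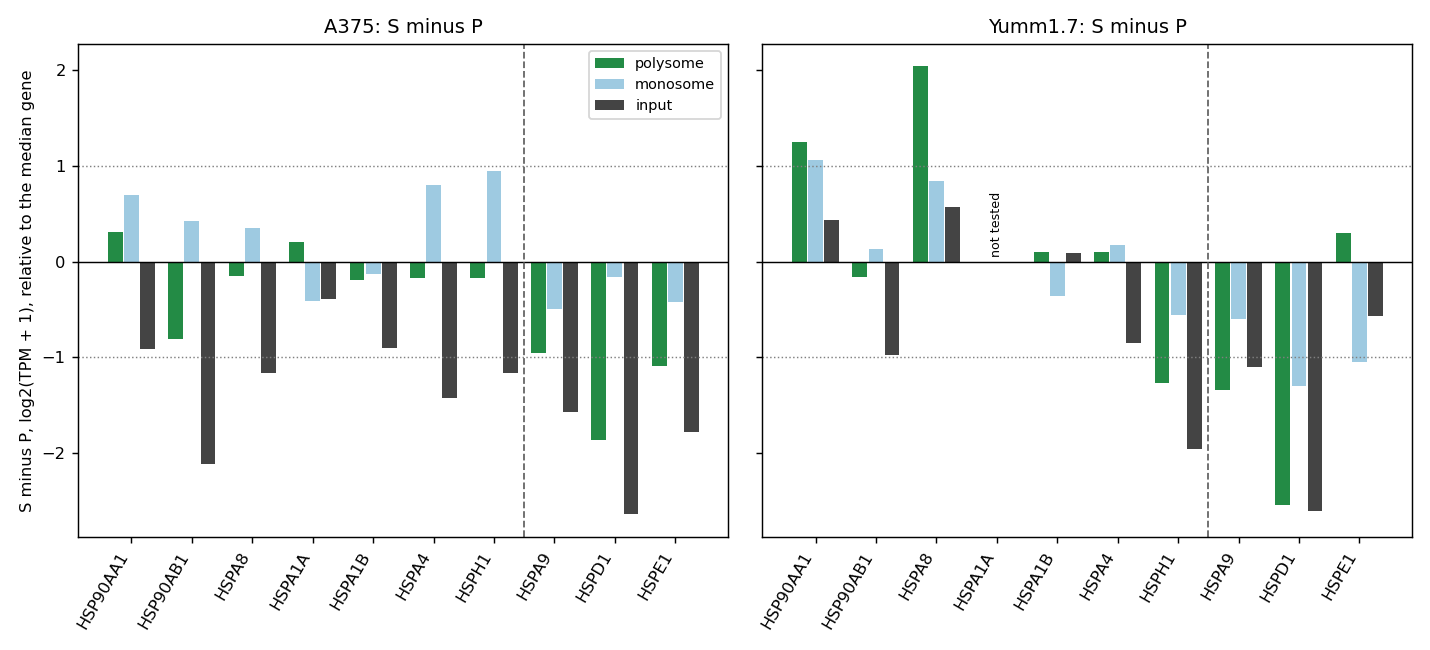
S minus P difference of log2(TPM + 1) for each gene relative to the median gene, in polysome, monosome and input libraries, with 2-fold marked by dotted lines and the Yumm1.7 gene below the level limit marked as not tested. In A375 the input bars reach down to -2.64 while 5 of the 7 cytosolic monosome bars lie above 0, and in Yumm1.7 HSPA8 and HSP90AA1 point up and HSPD1 down in all 3 fractions, although both HSP90AA1 and HSPA8 in input and HSP90AA1 in polysomes are below 0 as deposited.

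Polysome and monosome libraries were compared within a state to show how far the mRNAs sedimented with many ribosomes. In A375 all 10 members leaned towards polysomes more than the median gene in both states, 7 of them at least 2-fold in S, against 20.8% of all genes, and 9 in P, against 19.1%. None was 2-fold lower, where 16.7% of all genes were in S and 20.8% in P. With the median taken over genes of at least 10 TPM, HSPE1 (-0.30) and HSPH1 (-0.17) lay below the median gene in S, as HSPE1 did with 0.1 TPM added (-0.11). The member medians were 1.61 in S and 2.31 in P. HSP90AB1 had 2072 TPM in polysomes and 228 in monosomes of S (2.51 relative to the median gene), and 4203 in polysomes and 165 in monosomes of P (3.61, percentile 99.8 of all genes). HSPA1A had 22.8 TPM in polysomes and 0.453 in monosomes of S (3.37), and 22.9 in polysomes and 0.877 in monosomes of P (2.62). With 1 TPM added HSPA1A was the member furthest towards polysomes in S and HSP90AB1 in P. The order in P depends on the amount added. HSPA1B, with 20.1 TPM in polysomes and 0.686 in monosomes of P, lay narrowly ahead of HSP90AB1 with 0.1 TPM added. HSPE1 was the member closest to the median gene, with 420 TPM in polysomes and 259 in monosomes of S (0.03) and 1031 in polysomes and 339 in monosomes of P (0.55).

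In Yumm1.7 the lean was smaller. Of 9 members 1 was at least 2-fold higher in polysomes in S (HSPA8, 1.44), against 13.2% of all genes, and 1 in P (HSP90AB1, 1.21), against 14.0%. None was 2-fold lower, against 10.9% in S and 13.4% in P. As deposited the counts were 0 in S, against 6.32%, and 8 in P, against 46.2%, and the median gene stood at -0.46 in S and 0.91 in P. The member medians were 0.63 in S and 0.74 in P. Hspa8 had 3131 TPM in polysomes and 1591 in monosomes of S, and 2208 in polysomes and 1029 in monosomes of P (0.19). Hspd1 was the one member below the median gene in S (-0.25), with 40.1 TPM in polysomes and 66.1 in monosomes, against 692 and 190 in P (0.95). Hspe1 was the one below it in P (-0.50), with 1179 TPM in polysomes and 884 in monosomes.

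The change of the polysome-to-monosome ratio, S minus P, was compared next. In A375, 3 members had a ratio at least 2-fold lower in S, against 7.88% of all genes, and none a higher one, against 13.1%. They were HSPD1 (-1.66, percentile 1.9), HSP90AB1 (-1.19) and HSPH1 (-1.07), and 9 of 10 members lay below 0, HSPA1B barely (-0.01, and 0.14 with 0.1 TPM added). HSPA1A was the exception (0.66, and past 2-fold at 1.17 with 0.1 TPM added). Its monosome levels were low, 0.453 TPM in S and 0.877 in P. In Yumm1.7 Hspd1 again had the lower ratio in S (-1.15, against 12.6% of all genes at least 2-fold lower, and as deposited 6 members did, against 66.5%), while Hspe1 (1.44, but 0.02 as deposited) and Hspa8 (1.30, but -0.12 as deposited) had higher ones, against 17.3%. The call of Hspd1 was lost with 0.1 TPM added (-0.88) and with the median over genes of at least 10 TPM (-0.94).

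**Figure D3:**
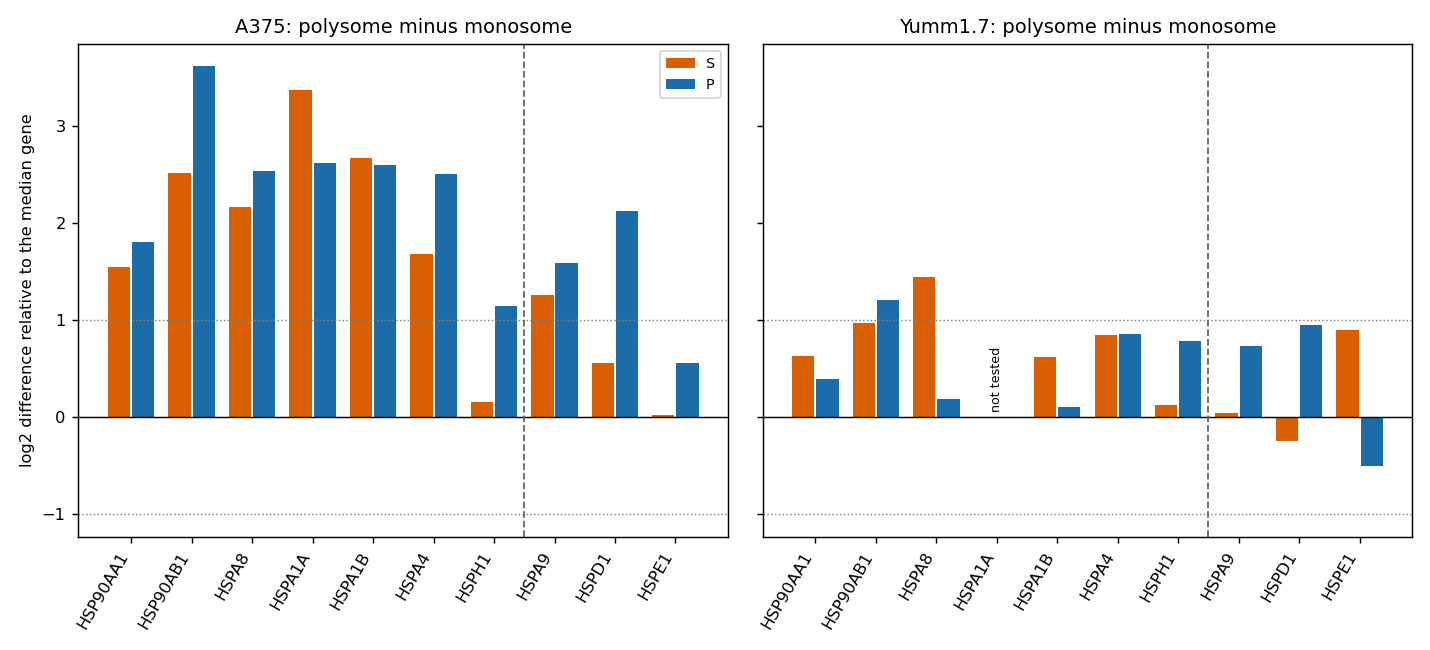
Polysome minus monosome difference of log2(TPM + 1) for each gene relative to the median gene, with S in orange, P in blue and 2-fold marked by dotted lines. In A375 the bars reach 3.37 in S and 3.61 in P, and in Yumm1.7 they lie between -0.50 and 1.44.

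Polysome libraries were also compared with input, which relates the heavy polysomes to the whole pool of an mRNA. In A375 S, 9 of 10 members were at least 2-fold higher in polysomes than in input, against 10.5% of all genes, with HSPE1 the exception (0.21). In A375 P, 1 of 10 was, HSPA1A (1.04), against 0.926%, and as deposited 3 were, against 2.05%. None was 2-fold lower, against 9.46% in S and 10.3% in P. The largest values in A375 S were those of HSP90AB1 (2072 TPM in polysomes and 487 in input, 2.09) and HSPA8 (2372 and 572, 2.06). In P HSP90AB1 stood at 0.68 and HSPA8 at 0.94. The member medians in A375 were 1.71 in S and 0.64 in P.

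All 10 members of A375 had a higher polysome-to-input ratio in S than in P relative to the median gene, from 0.63 for HSPA1A to 1.34 for HSP90AB1. For 5 of them the change was at least 2-fold, against 5.87% of all genes, and for none was it 2-fold lower, against 2.48%. As deposited all 10 changes were still above 0, and 3 were past 2-fold, against 5.44%. The 5 were all cytosolic (HSP90AA1, HSP90AB1, HSPA8, HSPA4 and HSPH1), and of these HSPA8 (0.998) and HSPH1 (0.983) fell short as deposited. The mitochondrial members lay between 0.63 and 0.80, and the cytosolic HSPA1A (0.63) and HSPA1B (0.75) had similar values. This ratio uses the same input and polysome libraries as the S minus P differences above, so the lower level of these mRNAs in S input and their higher ratio in S are not separate observations.

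In Yumm1.7, 3 of 9 members were at least 2-fold higher in polysomes than in input of S (HSPA4 at 1.14, HSP90AB1 at 1.08 and HSPA8 at 1.08), against 8.93% of all genes, and none in P, against 1.48%. As deposited 1 was in P, against 12.1%. None was 2-fold lower, against 8.59% in S and 4.81% in P. Of the 9, 8 had a higher ratio in S than in P relative to the median gene, with Hspa9 below it (-0.25) and Hspa1b (0.01) and Hspd1 (0.06) close to it, both below it without the filter on low values (-0.08 and -0.04). Hspa8 was the only one past 2-fold (1.46), against 11.3% of all genes, and none was 2-fold lower, against 8.91%. As deposited 6 of 9 changes were above 0 and none was past 2-fold, against 3.4% of all genes higher and 28.9% lower.

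**Figure D4:**
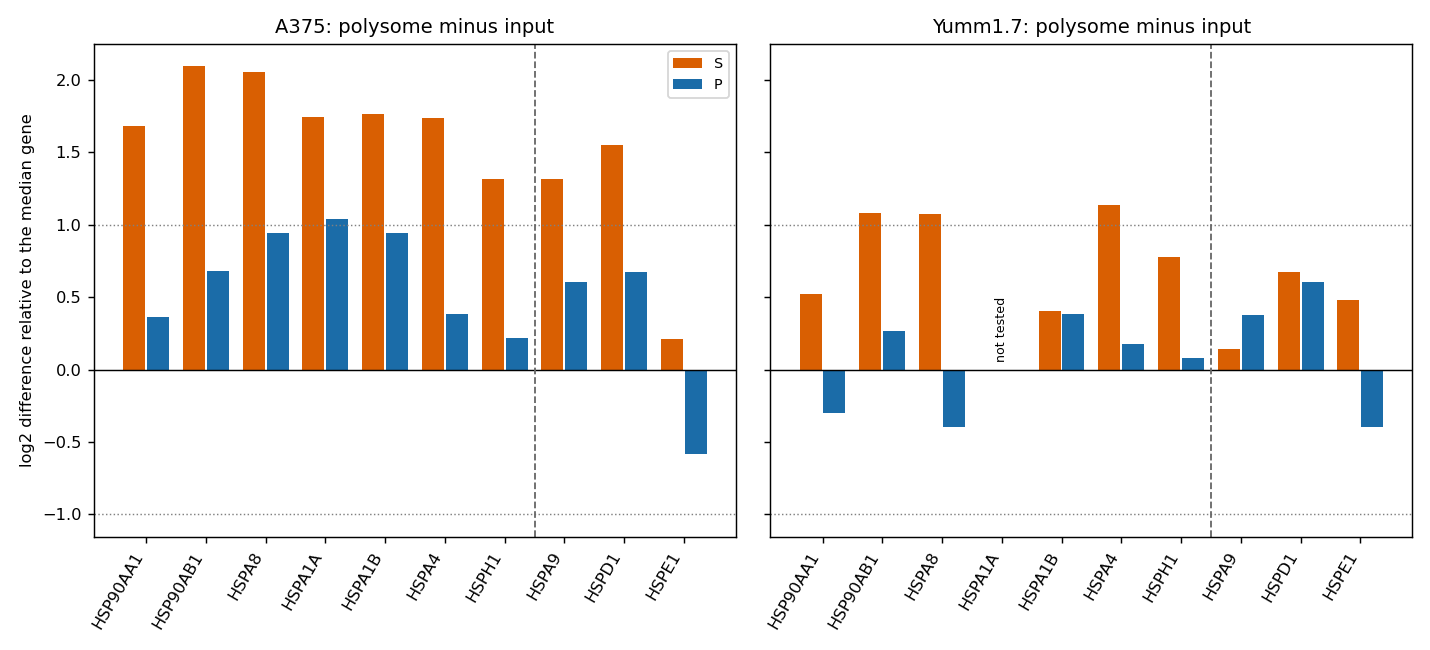
Polysome minus input difference of log2(TPM + 1) for each gene relative to the median gene, with S in orange, P in blue and 2-fold marked by dotted lines. In A375 the S bar is above the P bar for all 10 genes, and in Yumm1.7 it is for 8 of the 9 genes drawn.

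Ratios between partner genes in TPM do not depend on the scaling of a library. HSP90AA1 over HSP90AB1, the inducible over the constitutive HSP90, was higher in S in each of the 3 fractions of both lines. In A375 it was 1.14 in S polysomes and 0.527 in P polysomes, 2.23 and 1.85 in monosomes, and 1.52 and 0.658 in input. In Yumm1.7 it was 0.871 in S polysomes and 0.328 in P polysomes, 1.10 and 0.578 in monosomes, and 1.28 and 0.486 in input. HSP90AA1 was thus the more abundant of the pair in S input and HSP90AB1 in P input, in both lines.

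HSPE1 over HSPD1, the cap over the ring of the mitochondrial chaperonin, whose human genes start head to head, was higher in S in polysomes and input of both lines. In A375 it was 0.908 in S polysomes and 0.530 in P polysomes, and 2.31 in S input and 1.27 in P input. In Yumm1.7 it was 12.4 in S polysomes and 1.704 in P polysomes, and 14.5 in S input and 3.42 in P input. The monosome libraries were closer, with 1.31 in S and 1.58 in P of A375, and 5.58 in S and 4.66 in P of Yumm1.7. HSPH1 over HSPA4 was lower in S in all 3 fractions of Yumm1.7, with 0.171 in S and 0.469 in P polysomes, 0.286 and 0.488 in monosomes, and 0.211 and 0.501 in input. In A375 it was 0.488 in S and 0.490 in P polysomes, 1.42 and 1.28 in monosomes, and 0.650 and 0.548 in input.

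**Figure D5:**
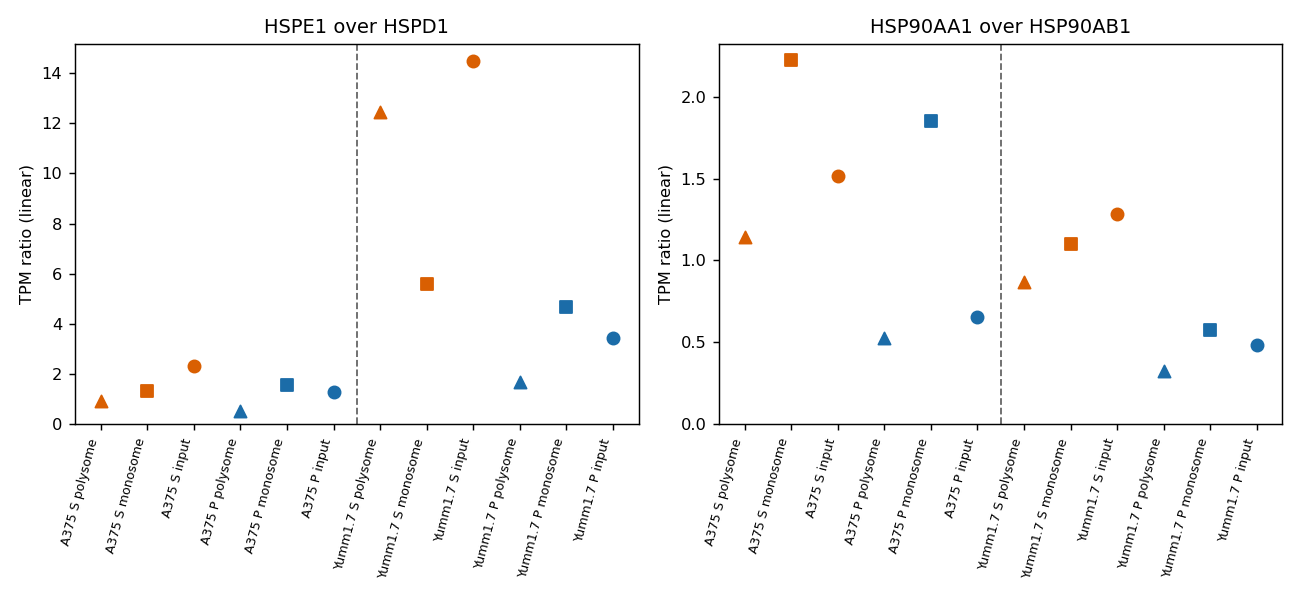
Ratio of TPM in each of the 12 libraries for HSPE1 over HSPD1 (left) and HSP90AA1 over HSP90AB1 (right), on linear axes from 0, with S in orange, P in blue, triangles for polysomes, squares for monosomes and circles for input. The Yumm1.7 S polysome and input libraries stand out at 12.4 and 14.5 on the left, and on the right each S symbol lies above the P symbol of the same shape and line.

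Other genes of the chaperone system were counted in 6 lists. Their S minus P differences in input are given relative to the median gene. Of all genes 16.2% were at least 2-fold lower and 15.6% higher in A375 on this scale, and 22.3% lower and 23.1% higher in Yumm1.7. The lists are small, and counts near these shares are no result about a list. They also overlap, so their counts are not separate observations. DNAJA3 and DNAJC19 are in both the J-domain and the mitochondrial list, and GRPEL1 and GRPEL2 in both the exchange factor and the mitochondrial list. Of 4 heat shock factors and their regulators, 1 was at least 2-fold higher in A375 (median 0.40), against 15.6% of all genes, and none in Yumm1.7 (0.67), against 23.1%. HSF1 itself had 56.4 TPM in S input and 56.1 in P input of A375 (0.21), and 32.3 and 42.3 in Yumm1.7 (0.56, and as deposited below 0). HSF2, a related factor, had 6.87 and 13.3 TPM in S and P input of A375 (-0.66), and 3.20 and 10.5 in Yumm1.7 (-0.52). HSBP1, which binds HSF1, was the highest of those with at least 5 TPM on average, with 49.8 TPM in S and 37.9 in P of A375 (0.59) and 157 and 172 in Yumm1.7 (0.81, and as deposited below 0). Of 18 HSP90 co-chaperones, 9 were at least 2-fold lower and none higher in A375 S input (median -0.93), against 16.2% and 15.6% of all genes. In Yumm1.7, 6 were lower and 3 higher (median -0.41), against 22.3% and 23.1%. RUVBL1, an ATPase of the R2TP complex that assembles large machines with HSP90, was the lowest in A375 with 44.0 TPM in S and 212 in P. In Yumm1.7 the ends of the list were Ruvbl2 (14.1 TPM in S and 133 in P) and the ubiquitin ligase Stub1 (642 and 299).

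Of the J-domain co-chaperones, 5 of 17 were lower and 3 higher in A375 (median -0.38), against 16.2% and 15.6% of all genes, and 6 of 18 were lower and 3 higher in Yumm1.7 (-0.52), against 22.3% and 23.1%. DNAJB2, a J-domain protein that hands clients to degradation, was the highest of this list in both lines, with 80.7 TPM in S and 19.1 in P of A375 and 42.0 and 8.70 in Yumm1.7. The lowest were DNAJA3, the mitochondrial J-domain partner of HSPA9, in A375 (18.5 TPM in S and 75.9 in P) and the histone-binding Dnajc9 in Yumm1.7 (1.85 and 99.9). Of 10 nucleotide exchange factors and modulators of HSP70, 2 were lower and 2 higher in each line, which is near the shares of all genes. SIL1, which serves the HSP70 of the endoplasmic reticulum, was the highest in both, with 62.7 TPM in S and 24.2 in P of A375 and 55.2 and 20.7 in Yumm1.7. GRPEL2, an exchange factor for HSPA9, was lowest in A375 (12.2 and 32.0), and Bag2 in Yumm1.7 (0.886 and 27.8).

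Of the other HSP70 family genes 2 of 5 were lower in A375 and 3 of 5 in Yumm1.7, against 16.2% and 22.3% of all genes, with 1 higher in Yumm1.7, against 23.1%. HSPA14, a ribosome-linked HSP70, was the lowest in both, with 4.61 TPM in S and 30.9 in P of A375 and 2.07 and 49.7 in Yumm1.7. HSPA13 was at the other end of those with at least 5 TPM on average, with 21.3 TPM in S and 33.4 in P of A375 and 3.12 and 16.0 in Yumm1.7. Other mitochondrial chaperones and proteases had 6 of 19 lower and 1 higher in A375 (median -0.40), against 16.2% and 15.6% of all genes. In Yumm1.7, 4 of 19 were lower and 3 higher (-0.22), against 22.3% and 23.1%. TRAP1, the mitochondrial HSP90, was the lowest in A375 (42.3 TPM in S and 177 in P) and the protease HTRA2 the highest (103 and 49.5). In Yumm1.7 they were the protease subunit Clpx (0.803 and 9.73) and Dnlz, a helper that keeps HSPA9 soluble (47.0 and 25.4). The 3 mitochondrial members had medians of -1.78 in A375 and -1.10 in Yumm1.7 on the same scale.

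Among 4380 candidate genes outside the list, the 5 whose profile over all 12 libraries was most like the median member were TRAPPC4, RTCB, PREP, HK1 and ECD. Their root mean square distances were 0.23 to 0.26 on the log2 scale, after each library was set to its median gene and each gene to its own mean per line. The members themselves lay between 0.18 (HSPA4) and 0.86 (HSPD1) from their median. That median was taken over all members, including Hspa1a, which in Yumm1.7 was below the level needed for the other comparisons. RTCB, the RNA ligase of tRNA splicing, had 160 TPM in S polysomes and 236 in P polysomes, and 64.2 in S input and 132 in P input of A375. HK1, a hexokinase, had 117 and 204 TPM in S and P polysomes and 50.7 and 109 in S and P input.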

How the data were processed

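The data are 12 RNA sequencing libraries, 1 per cell line, state and fraction. Per the labels' protocols, mRNA was captured on poly-T beads, primed randomly and amplified. The authors deposited TPM in 1 table per line. The builds GRCh38 (hg38) and GRCm38 (mm10) are per the submitters' processing notes, while aligner, quantifier, annotation and strandedness were not given in the sources used here. All columns match sample titles. Values were compared as log2(TPM + 1) with Python 3.11.15, numpy 2.4.6 and pandas 2.3.3, over genes averaging 1 TPM or more across a line's 6 libraries, relative to the median gene of each comparison. The calculation was tested on simulated data with large planted changes and little noise, in genes averaging at least 10 TPM. That checks the arithmetic only, and not the calls in these libraries or at low levels. No test across replicates was possible. Depth is unknown, so no counting interval is given. The members, the 6 other lists and the rules were chosen with earlier results of these data known. All members are described, and of each other list the gene with the largest and the one with the smallest S minus P input difference at a mean of at least 5 TPM, with HSF1 and HSF2. Some genes that this rule names are not reported here. Alternatives were a pseudocount of 0.1 TPM, values as deposited, a median over genes of at least 10 TPM, no filter, and HSPA1A and HSPA1B summed. Sequences and human loci are from RefSeq (GRCh38.p14). Promoters and loci of mouse were not used here.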

Additional observations from a re-analysis of the deposited data

Results flagged for a closer look

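In 5 cases S minus P went opposite ways in the 2 lines relative to the median gene, with at least 1 line past 2-fold. With 1 library per group the difference between lines was not tested. HSPA8 in polysomes stood at -0.15 in A375 and 2.04 in Yumm1.7, lines differing by -2.19 (A375 minus Yumm1.7), and at -0.36 and 0.50 as deposited. HSPA8 in input stood at -1.16 and 0.57, a difference of -1.73, but both were below 0 as deposited (-1.36 and -0.37). The polysome-to-monosome change of HSPA8 was -0.46 in A375 and 1.30 in Yumm1.7, a difference of -1.76, and was below 0 in both as deposited (-0.75 and -0.12). HSPE1 in polysomes stood at -1.09 and 0.29, a difference of -1.38, with -1.29 and -1.24 as deposited. The polysome-to-monosome change of HSPE1 was -0.62 and 1.44, a difference of -2.06, with -0.91 and 0.02 as deposited. Summed fibroblast markers were higher in S in all 3 fractions of Yumm1.7 and, in A375, in monosomes (2.06 TPM in S and 1.60 in P) but not in polysomes or input, and their part in these differences was not tested.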

How the results depend on the processing

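Counts of members past 2-fold were recomputed under 5 alternatives, and those that moved by over 1.5 times are given here. As deposited, the counts at least 2-fold lower in S were 4 in A375 polysomes (2 relative to the median gene), and 6 in input (3) and 7 in polysomes (3) of Yumm1.7. The Yumm1.7 polysome-to-monosome ratio was lower in S for 6 members (1), and members higher in polysomes than monosomes numbered 0 in S (1) and 8 in P (1). Polysome-to-input ratios were at least 2-fold higher in S for 3 members of A375 (5) and 0 of Yumm1.7 (1), and 3 members of A375 P (1) and 1 of Yumm1.7 P (0) were higher in polysomes than input. Called values that changed direction as deposited were HSP90AA1 in Yumm1.7 polysomes (-0.29) and the polysome-to-monosome change of HSPA8 in Yumm1.7 (-0.12). With the median over genes of at least 10 TPM, 0 members were higher in polysomes than monosomes in Yumm1.7 P, 0 had the lower polysome-to-monosome ratio in Yumm1.7 S, and 0 were higher in polysomes than input in A375 P. Without a filter, 5 were lower in Yumm1.7 S input, 3 higher in polysomes than monosomes in Yumm1.7 P, and 3 higher in polysomes than input in A375 P. With 0.1 TPM added, 4 were higher in polysomes than monosomes in Yumm1.7 S, 0 had the lower polysome-to-monosome ratio in Yumm1.7 S, and 2 the higher polysome-to-input ratio. Summing HSPA1A and HSPA1B moved no count by over 1.5 times. For the 10 TPM median, no filter, 0.1 TPM and summed settings the shares of all genes were not computed. Those counts therefore cannot be set against a background and are no result about the members. The counts of polysome-to-input ratios that were higher, and of members higher in polysomes than input, were added after the data were seen. No paired analysis was possible because each group has 1 library and the labels give no replicate numbers. The causes of these shifts were not tested.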

Other observations

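HSPA6, a strictly inducible HSP70 gene of human cells, was chosen after its values were seen. In A375 it had 1.42 TPM in S polysomes and 7.22 in P polysomes, 0.267 and 0.956 in monosomes, and 0.764 and 5.16 in input, so the S value was the lower one in every fraction. HSPA4L, an HSP110 gene close to HSPA4, had 1.47 TPM in S polysomes and 20.4 in P polysomes of Yumm1.7, and 1.92 and 11.2 in input.

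Copies of member genes were listed at low levels in A375. HSPD1P1 had 3.94 TPM in S polysomes and 17.9 in P polysomes of A375, and 1.28 and 12.3 in input. HSP90AA2P had 8.26 and 8.32 TPM in S and P polysomes and 0.524 and 7.58 in input. How reads were shared between these copies and their parent genes was not tested.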
